A study of Mus musculus with 2 samples.

Results

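Hox genes are the homeobox transcription factor genes that lie in 4 chromosomal clusters, and all 39 genes named Hoxa, Hoxb, Hoxc or Hoxd plus a number were taken, of 32285 genes in both count matrices. They were described in nuclei of mesenteric perivascular fat, the adipose tissue around the arteries of the gut, from mice aged 11 weeks. A library labelled Prdm16 cKO came from mice with the genotype "Prdm16flox, AdopiQCre+", that is, floxed Prdm16 alleles with a Cre transgene named for adiponectin, whose promoter is active in adipocytes. The reference was a flox control library from mice of the genotype Prdm16flox, so that both libraries carry the floxed allele and the control's label names no Cre. Nuclear RNA was measured by 10x Genomics 3′ sequencing, and the labels do not say how many mice went into a library. Each genotype had 1 library, so no difference below could be checked against replicates. Intervals are 95% intervals and cover counting error alone.

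Hox proteins give cells their position along the head-to-tail axis of the embryo. Genes at one end of each cluster (low paralog group numbers) are switched on first and reach furthest towards the head, and genes at the other end mark the lower trunk, limbs and tail. Adult mesenchymal cells keep much of this code, and fat depots and their progenitors can be told apart by it. HOX proteins bind DNA together with the TALE homeodomain cofactors of the PBX, MEIS and PKNOX families.

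In GENCODE M21 on GRCm38, the assembly behind mm10, the HoxA cluster spans chr6:52155590-52260880 with 11 genes on the minus strand. HoxB spans chr11:96194316-96368256 with 10 genes, HoxC chr15:102921103-103036852 with 9, and HoxD chr2:74668310-74765142 with 9, all on the plus strand. The genes are packed so closely that 11 of the 39 overlap another Hox gene on the same strand and 14 overlap an antisense transcript. Of the 19 genes described class by class, 9 overlap a Hox neighbour: Hoxa3 with Hoxa4, Hoxa5 and Hoxa6, Hoxc5 with Hoxc6 and Hoxc8, and Hoxd3 with Hoxd4. Counts of those genes, and of genes with an antisense partner, are uncertain, because no source used here gives the way reads were assigned.

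The RefSeq promoter table (GRCm38.p6) held 22 of the 39 genes, and the 250 bases before the start are printed for 3 genes that stand for different patterns below and whose window holds no annotated exon. Hoxb8 (chr11:96281655-96281904, plus strand) was highest in adipocytes, with vascular endothelium close behind. Hoxd4 (chr2:74721728-74721977, plus strand) was high in endothelium, and Hoxa5 (chr6:52204588-52204837, minus strand) was highest in mesothelium. Sequences run 5′ to 3′ along the gene's strand, and capitals mark TTTATNG, a motif type of caudal and posterior HOX proteins, or TGATNNAT, a motif type of PBX-HOX pairs, on either strand.
Hoxb8: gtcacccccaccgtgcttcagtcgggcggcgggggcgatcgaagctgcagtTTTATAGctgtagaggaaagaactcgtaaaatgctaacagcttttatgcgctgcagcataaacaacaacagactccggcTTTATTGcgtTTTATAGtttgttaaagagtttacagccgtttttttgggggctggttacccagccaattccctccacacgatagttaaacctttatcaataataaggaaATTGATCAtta
Hoxd4: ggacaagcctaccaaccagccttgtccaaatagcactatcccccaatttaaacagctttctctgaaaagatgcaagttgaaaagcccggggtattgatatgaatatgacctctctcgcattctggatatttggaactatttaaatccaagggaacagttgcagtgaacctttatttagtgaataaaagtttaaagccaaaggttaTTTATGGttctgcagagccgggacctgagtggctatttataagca
Hoxa5: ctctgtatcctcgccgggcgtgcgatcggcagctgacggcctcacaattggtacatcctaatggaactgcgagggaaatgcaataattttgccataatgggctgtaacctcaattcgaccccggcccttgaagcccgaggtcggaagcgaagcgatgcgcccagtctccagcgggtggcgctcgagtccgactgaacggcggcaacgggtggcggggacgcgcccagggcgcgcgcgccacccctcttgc
The Hoxb8 window held 3 matches to TTTATNG and 1 to TGATNNAT, which do not overlap, and the Hoxd4 window 1 to TTTATNG. The Hoxa5 window held neither string. Among promoter windows of the same length, with the first listed start of each gene, TTTATNG was in 2 of 22 Hox windows (9.1%) against 10.2% of all 27025, and TGATNNAT in 3 of 22 (13.6%) against 7.9%. A match describes the letters and is not evidence of binding.

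After filtering, 7374 nuclei with 62275986 UMIs (unique molecular identifiers, each an RNA molecule counted once) came from the library labelled Prdm16 cKO and 10532 nuclei with 92779065 UMIs from the flox control, at medians of 6521.5 and 7035 UMIs per nucleus. The 2 libraries shared 24 barcodes among kept nuclei. Prdm16 itself was at 22.5 CPM (a gene's UMIs over all UMIs of the class, on the usual CPM scale) in adipocyte-like nuclei of the cKO-labelled library and 16.4 CPM in those of the control, a log2 ratio of 0.45 (0.32 to 0.59). This runs against the label, although the floxed exon is not given and 3′ counts need not cover it, so the label is unchecked and "cKO-labelled" is used throughout. In vascular endothelial-like nuclei Prdm16 was at 151 CPM in the cKO-labelled library and 263 CPM in the control. Nuclei were clustered without the Hox genes and named from marker sets, and 9 classes had at least 100 nuclei in each library. The adipocyte class was made up of clusters 0 (1255 nuclei), 1 (1214), 2 (210) and 7 (211) in the cKO-labelled library and of 1582, 799, 1411 and 496 nuclei of the same clusters in the control. A further 1011 cKO-labelled and 603 control nuclei fell in clusters that stayed unnamed and were not used.

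Across all kept nuclei most Hox UMIs came from paralog groups 3 to 8, with few from the groups on either side. Groups 4 to 8 gave 70.6% of Hox UMIs in the cKO-labelled library and 67.6% in the control, and groups 1 to 3 gave 28.6% and 31.3%. Group 3 alone gave 26.9% (cKO-labelled) and 30.2% (control). Group 1 gave 0.423% (99 UMIs, cKO-labelled) and 0.213% (74 UMIs, control), less than group 9, which gave 0.722% and 0.851%. The 16 genes of groups 9 to 13, which mark the lower trunk, limbs and tail, gave 0.773% in the cKO-labelled library (181 UMIs) and 1.05% in the control (365 UMIs). None of those 16 reached 100 UMIs in each library. In all, 19 Hox genes did, and 6 (Hoxa13, Hoxb13, Hoxc12, Hoxc13, Hoxd1 and Hoxd12) had no UMI in either library, which allows up to 3 UMIs in each. Group 10 had 12 UMIs in the cKO-labelled library and 55 in the control, and group 11 had 0 and 13. The rarer genes included Hoxa2 (82 UMIs in the cKO-labelled library and 89 in the control), Hoxa9 (55 and 110), Hoxc9 (55 and 67), Hoxd9 (31 and 55) and Hoxb9 (28 and 63). Hoxb1, Hoxa10, Hoxc10 and Hoxd10 had 2 to 8 UMIs in the cKO-labelled library and 7 to 33 in the control. Hoxa11, Hoxc11, Hoxd11 and Hoxd13 had 0 in the cKO-labelled library and 1 to 11 in the control, which was sequenced more deeply.

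**Figure D1:**
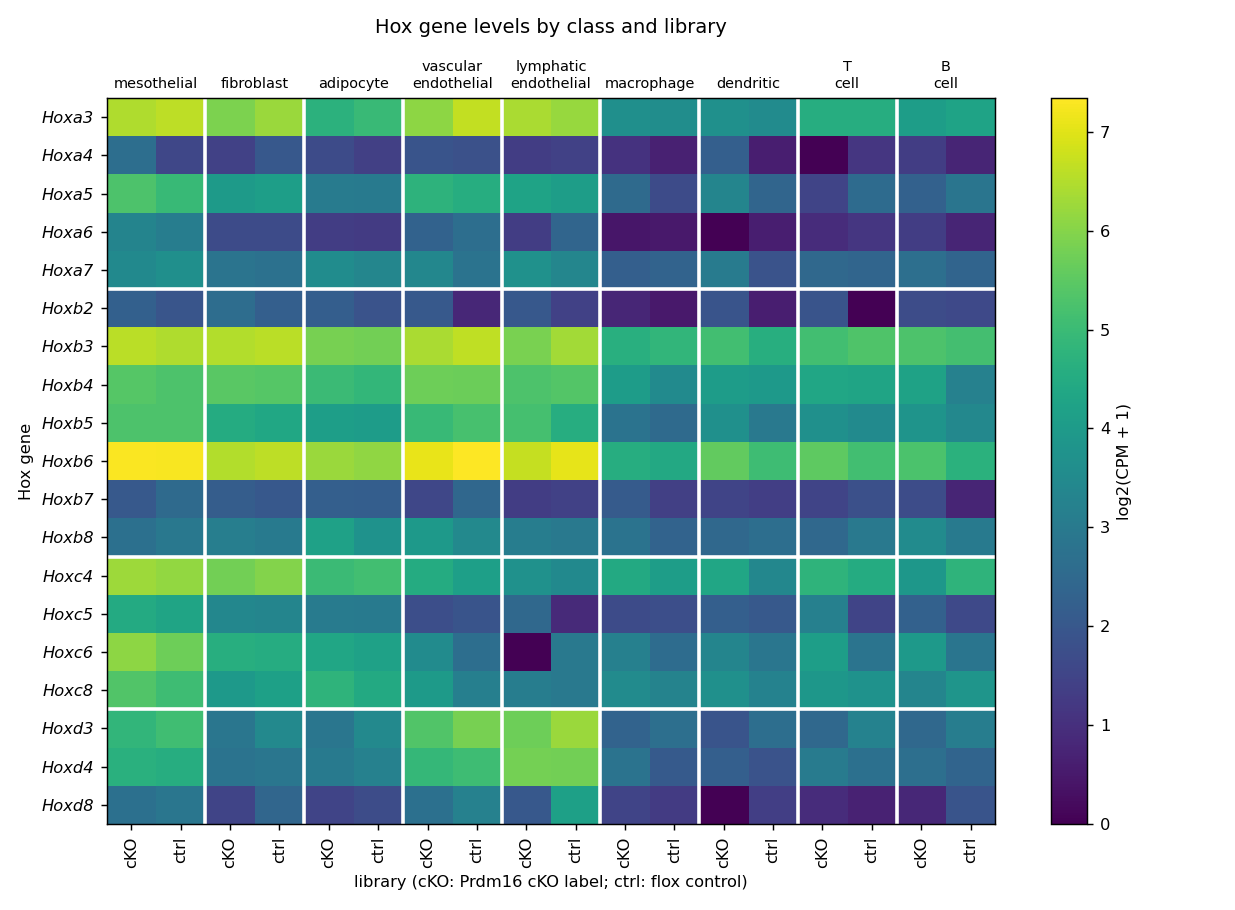
Levels of the 19 Hox genes with at least 100 UMIs in each library, as log2(CPM + 1) by colour, for 9 classes of nuclei with the cKO-labelled library left of the flox control. Hoxa3, Hoxb3 and Hoxb6 are bright in mesothelial, fibroblast and endothelial columns, and the HoxC rows are darker in the endothelial columns, where Hoxd3 and Hoxd4 are bright.

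Summed over all 39 genes, mesothelial-like nuclei had the highest Hox level, at 770.1 CPM (740.1 to 801.1) in the cKO-labelled library and 723.4 CPM (703.2 to 744.0) in the control. Vascular endothelial-like nuclei followed at 576.2 (cKO-labelled) and 650.9 CPM (control) and lymphatic endothelial-like nuclei at 513.5 and 576.6 CPM. Progenitor or fibroblast-like nuclei had 465.2 CPM in the cKO-labelled library and 505.7 CPM in the control, and adipocyte-like nuclei 353.0 and 338.6 CPM. The order of these 5 classes was the same in both libraries, but the interval of lymphatic nuclei in the cKO-labelled library (460.2 to 571.2) overlapped that of fibroblasts (447.3 to 483.7) and of vascular nuclei (547.0 to 606.6). Among small classes, pericyte-like nuclei had 408.0 (cKO-labelled) and 469.9 CPM (control) and smooth muscle-like nuclei 495.8 and 509.2 CPM.

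Lymphocytes were taken as the level that free RNA can give in nuclei of another type. T and B cell-like nuclei together had 216.8 CPM of Hox RNA in the cKO-labelled library and 194.6 CPM in the control, and macrophage-like nuclei had 156.2 and 132.3 CPM. The 4 clusters entered the lymphoid sum in almost the proportions found in adipocytes. In the cKO-labelled library HoxA, HoxB, HoxC and HoxD made up 15%, 55.5%, 24.2% and 5.37% of lymphoid Hox UMIs, beside 14.3%, 57.3%, 24.0% and 4.44% in adipocytes. In the control they made up 17.1%, 51.6%, 23.5% and 7.87% in lymphoid nuclei and 15.6%, 54.8%, 23.5% and 6.18% in adipocytes. All 8 adipocyte markers were detected in lymphocytes, at a median of 45.7% (cKO-labelled) and 28.6% (control) of their adipocyte level in B cell-like nuclei and 52.5% and 35.9% in T cell-like nuclei. The part of free RNA in single Hox values was not tested.

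A Hox gene was counted in a class where its CPM was at least 2 times the lymphoid CPM in both libraries, with at least 10 UMIs in each. In mesothelial-like nuclei 17 of 21 Hox genes with enough counts passed, beside 15.1% of all genes tested there. In vascular endothelial-like nuclei 11 of 16 passed (background 10.1%), in lymphatic endothelial-like nuclei 7 of 8 (11.8%) and in fibroblast-like nuclei 7 of 19 (12.5%). In adipocyte-like nuclei 1 of 24 passed, Hoxa7 (background 3.68%). That count was 7 at a fold of 1.5, and 10 when macrophage-like nuclei gave the level. Adipoq, the adiponectin gene and an adipocyte marker, would itself fail the rule. It was at 235 CPM in adipocytes of the cKO-labelled library, against 160 CPM in B and 135 CPM in T cells (control: 284 against 105 and 102 CPM). A low adipocyte count by this rule thus does not show that adipocytes lack these genes. The lymphatic count became 0 with every nucleus thinned to 1000 UMIs. Only 109 cKO-labelled lymphatic nuclei entered that setting, so few Hox genes could reach the minimum of 10 UMIs. This 0 therefore cannot tell whether the 7 genes stand above the lymphoid level. None of 13 passed in macrophage-like nuclei (8.1%) and none of 8 in dendritic-like nuclei (6.7%). With each nucleus thinned to 1000 UMIs, 53.5% of 514 cKO-labelled and 49.8% of 1003 control mesothelial nuclei had at least 1 Hox UMI. The thinned share was 28.8% (cKO-labelled) and 28.4% (control) in adipocytes and 14.7% and 13.2% in macrophages. Without thinning the shares were 91.2% (cKO-labelled) and 94.3% (control) in mesothelial nuclei (median 5230 and 5585.5 UMIs), 93.7% and 95.2% in the deeper adipocyte nuclei (11854.5 and 12237 UMIs), and 46.1% and 44.9% in macrophages (4351 and 4591 UMIs).

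**Figure D2:**
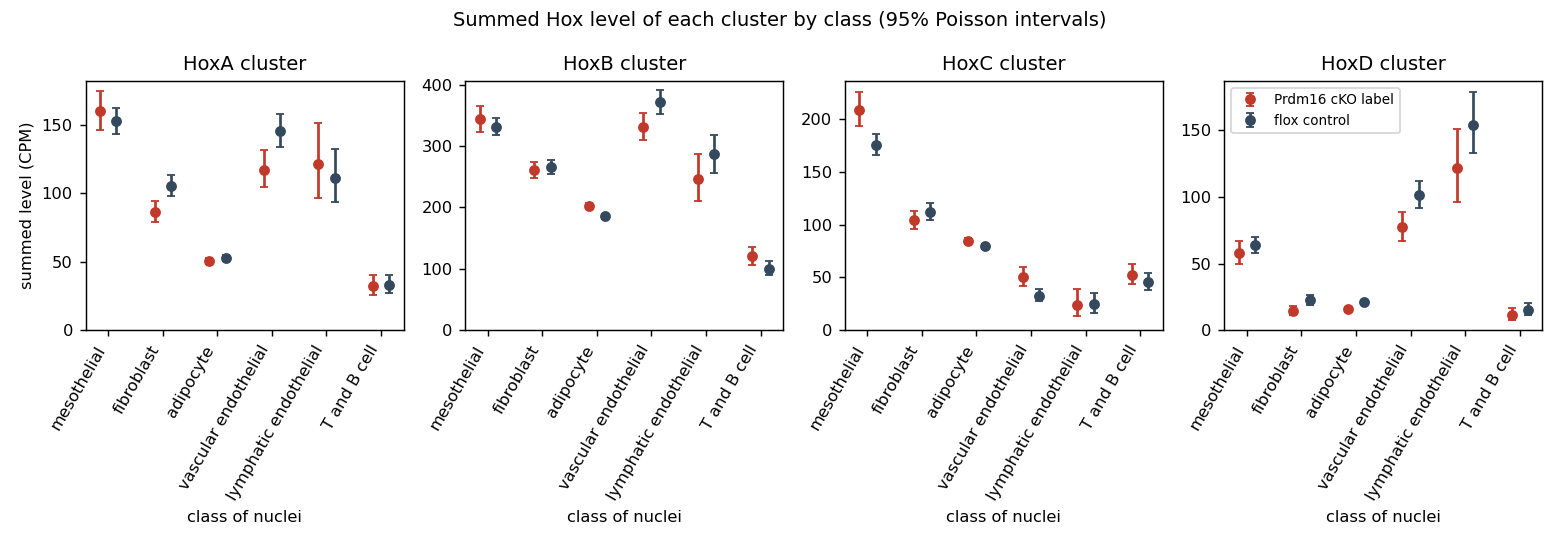
Summed level in CPM (y axis, from 0) of the HoxA, HoxB, HoxC and HoxD genes in 5 non-immune classes and in T and B cell-like nuclei, with the cKO-labelled library left of the flox control and bars as 95% Poisson intervals. HoxC is highest in mesothelium and falls to or below the lymphoid level in endothelium, and HoxD is highest in lymphatic endothelium.

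Mesothelium, the cell layer that lines the peritoneal cavity, had the highest level of the 5 non-immune classes in both libraries for 7 of the 19 genes: Hoxa5, Hoxa6, Hoxb5, Hoxc4, Hoxc5, Hoxc6 and Hoxc8. Hoxc6 was at 67.7 CPM in mesothelial nuclei of the cKO-labelled library, against 23.4 CPM in fibroblasts and 19.4 CPM in adipocytes. In the control it was at 52.0 CPM in mesothelial nuclei, against 22.2 CPM in fibroblasts and 17.5 CPM in adipocytes. Its intervals in mesothelium (59.0 to 77.3 CPM in the cKO-labelled library and 46.7 to 57.7 CPM in the control) did not overlap those of fibroblasts (19.5 to 27.8 and 18.8 to 25.9 CPM). Hoxa5, a gene of the cervical and thoracic axis, was at 38.2 (cKO-labelled) and 30 CPM (control) in mesothelium, against 15.1 and 16.4 CPM in fibroblasts. Hoxc5 was at 21.4 (cKO-labelled) and 18.4 CPM (control) in mesothelium, against 9.57 and 9.2 CPM in fibroblasts.

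Set against fibroblasts, 6 of 21 Hox genes were at least 2 times higher in mesothelial nuclei in both libraries (Hoxa6, Hoxc5, Hoxc6, Hoxc9, Hoxd3 and Hoxd4; background 9.75%) and 0 of 19 were 2 times lower (6.78%). Among them were Hoxd3, with log2 ratios of 2.10 (1.52 to 2.71, cKO-labelled) and 1.74 (1.35 to 2.15, control), and Hoxd4, with 2.06 (1.45 to 2.70) and 1.83 (1.35 to 2.34). Hoxb3 and Hoxb4 stood at like levels in both classes. Hoxb3 was at 93.8 (cKO-labelled) and 88.1 CPM (control) in mesothelium and 89.8 and 93.9 CPM in fibroblasts, and Hoxb4 at 41.6 and 38.5 CPM in mesothelium and 42.9 and 41.5 CPM in fibroblasts. Against adipocytes, 13 of 21 genes were at least 2 times higher in mesothelium (background 22.1%) and 0 of 24 were 2 times lower in both libraries (7.91%). The nearest to that was Hoxb8, at 5.59 (cKO-labelled) and 6.68 CPM (control) in mesothelium, against 17.4 and 12.4 CPM in adipocytes. The 2 mesothelial clusters, 8 (led by Muc16) and 6 (led by Vat1l), had summed Hox levels of 793.1 (cKO-labelled) and 777.5 CPM (control) in cluster 8 against 748.8 and 682.2 CPM in cluster 6. Hoxc6 was at 81.8 (cKO-labelled) and 58.5 CPM (control) in cluster 8, against 54.6 and 47.1 CPM in cluster 6.

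Per kilobase of exon, Hoxb6 had the highest mesothelial level of the 19 genes in both libraries, at 80.0 CPM per kb in the cKO-labelled library and 77.4 in the control. Hoxc4 followed at 29.5 (cKO-labelled) and 27.0 CPM (control) per kb, then Hoxc6 at 28.1 and 21.6. Per kilobase of the whole gene, introns included, Hoxb6 was also first, at 17.3 (cKO-labelled) and 16.7 (control). In adipocytes Hoxb6 was first per exon kilobase (37.7 in the cKO-labelled library and 35.2 in the control), while per kilobase of the whole gene Hoxb4 came first (9.22 and 8.32) and Hoxb6 second (8.14 and 7.58).

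Adipocyte-like nuclei had lower summed HoxA, HoxB and HoxC levels than fibroblasts, the class that holds fat progenitors. Hoxa7, Hoxb8 and Hoxc8 were higher in adipocytes. Summed HoxA was at 50.34 (cKO-labelled) and 52.68 CPM (control) in adipocytes and 86.34 and 105.6 CPM in fibroblasts. Summed HoxB was at 202.4 (cKO-labelled) and 185.4 CPM (control) in adipocytes and 260.5 and 265.6 CPM in fibroblasts. For HoxC the levels were 84.66 and 79.57 CPM in adipocytes and 103.8 and 111.9 CPM in fibroblasts. Within HoxA, the Hoxa6 intervals held 0 in both libraries and Hoxa4 differed in sign between them. At 2-fold in both libraries Hoxa2, Hoxa3 and Hoxa5 were lower in adipocytes (3 of 19; background 20.3%), and 0 of the 19 genes described class by class were higher (background 9.04%). The share counted as lower was thus no larger than that over all genes. Hoxa3 was at 25.3 (cKO-labelled) and 30.3 CPM (control) in adipocytes, against 58.5 and 74.0 CPM in fibroblasts. The log2 ratio was -1.21 (-1.39 to -1.02) in the cKO-labelled library and -1.29 (-1.43 to -1.14) in the control.

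Hoxb8 was the one gene of the 19 that was highest in adipocytes among the 5 non-immune classes in both libraries. It was at 17.4 CPM (16.1 to 18.8) in adipocytes of the cKO-labelled library and 12.4 CPM (11.5 to 13.3) in those of the control, against 7.73 and 6.97 CPM in fibroblasts. Vascular nuclei were close, at 14.3 (cKO-labelled) and 10.0 CPM (control). Their log2 ratios over adipocytes, -0.29 (-0.82 to 0.19) and -0.30 (-0.80 to 0.16), had intervals that held 0. The adipocyte over fibroblast log2 ratio was 1.17 (0.72 to 1.66, cKO-labelled) and 0.83 (0.41 to 1.27, control), past 2-fold in the cKO-labelled library alone. Hoxa7 was at 10.8 (cKO-labelled) and 9.31 CPM (control) in adipocytes, against 6.08 and 5.71 CPM in fibroblasts and 4.99 and 4.24 CPM in lymphocytes. Hoxc8 was at 26.1 (cKO-labelled) and 20.8 CPM (control) in adipocytes, against 14.7 and 17.0 CPM in fibroblasts, with log2 ratios of 0.82 (0.50 to 1.17) and 0.29 (0.02 to 0.57). Of the other group 7 and 8 genes among the 19, Hoxb7 had log2 ratios of 0.08 (-0.62 to 0.86, cKO-labelled) and 0.23 (-0.41 to 0.94, control). Hoxd8 was at 1.84 (cKO-labelled) and 2.25 CPM (control) in adipocytes, against 1.84 and 4.32 CPM in fibroblasts, a log2 ratio of -0.94 (-1.52 to -0.33) in the control. The 9 fibroblast markers stood in adipocytes at a median of 5.35% (cKO-labelled) and 4.99% (control) of their fibroblast level, and the 8 mesothelial markers at 2.63% and 2.72% of their mesothelial level.

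The 4 adipocyte clusters were much alike. For 12 of the 19 genes the highest cluster was less than 1.5 times the lowest in both libraries, and 2 genes, Hoxa6 and Hoxd8, reached 2 times in at least 1 library. Hoxb8 ranged over 17.0 to 21.8 CPM between these clusters in the cKO-labelled library and 10.3 to 13.5 CPM in the control, and Hoxb6 over 72.3 to 84.1 and 66.3 to 71.5 CPM. Fibroblast clusters differed more in Hoxa3, at 82.6 (cKO-labelled) and 103 CPM (control) in cluster 14 (led by Nkain3), against 58.7 and 74.7 CPM in cluster 5 (led by C7), log2 ratios of 0.49 (0.05 to 0.92) and 0.46 (0.12 to 0.79).

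**Figure D3:**
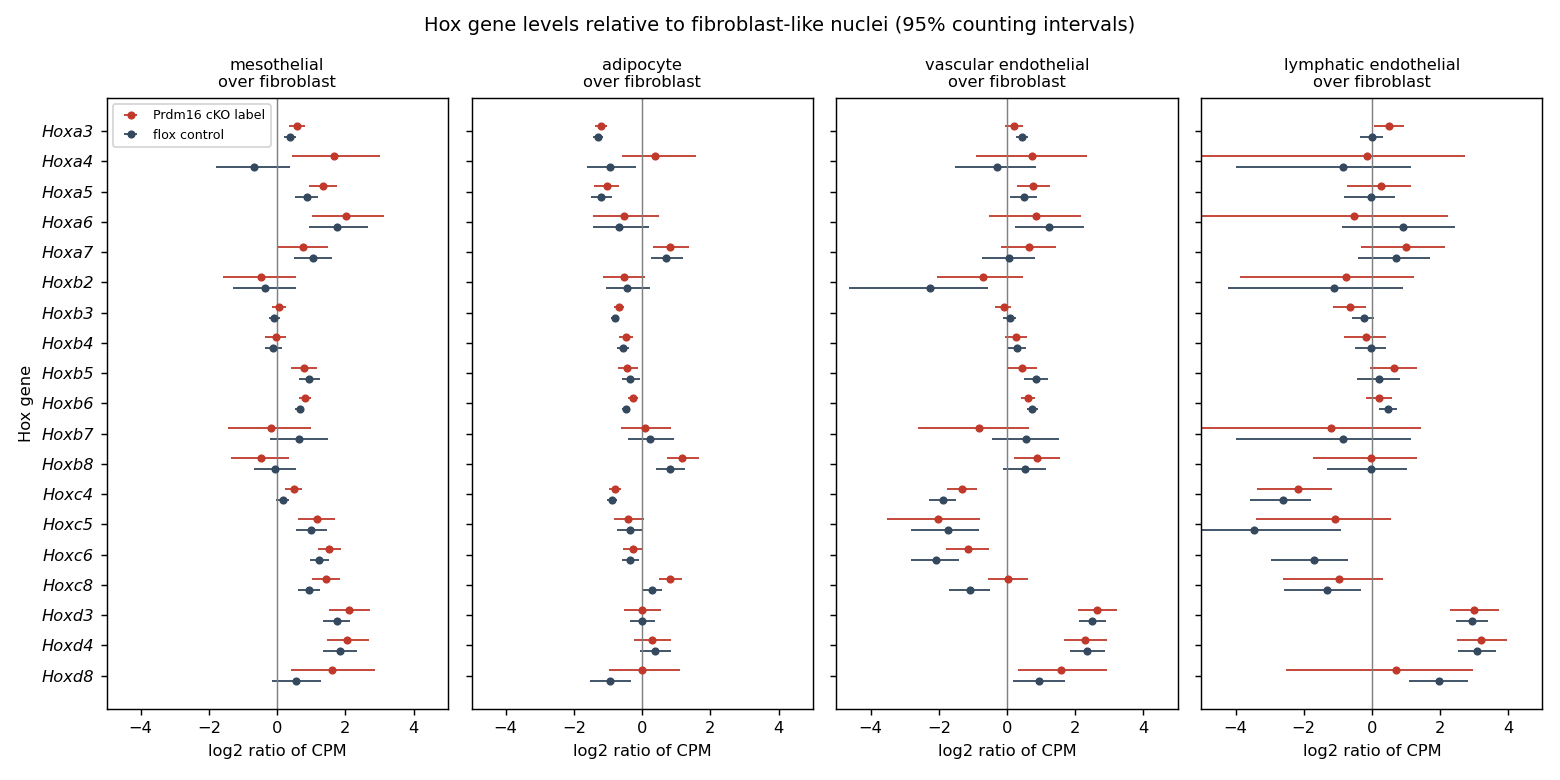
Log2 ratio of CPM over fibroblast-like nuclei (x axis) for 19 Hox genes in 4 classes, with the cKO-labelled library above the flox control and bars as 95% counting intervals; some wide bars run past the axis, and Hoxc6 has no point in lymphatic nuclei of the cKO-labelled library, where it had 0 UMIs. Hoxd3 and Hoxd4 lie to the right in mesothelium and both endothelial classes, and Hoxc4 lies to the left in both endothelial classes and in adipocytes.

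Endothelial nuclei had another balance of clusters, with little HoxC and more HoxD. HoxC made up 8.80% of Hox UMIs in vascular endothelial-like nuclei of the cKO-labelled library and 5.04% in the control, and 4.73% and 4.25% in lymphatic endothelial-like nuclei, against 22.3% and 22.1% in fibroblasts. HoxD made up 13.4% (cKO-labelled) and 15.6% (control) in vascular and 23.7% and 26.8% in lymphatic nuclei, against 3.13% and 4.46% in fibroblasts. At 2-fold in both libraries, vascular nuclei were higher than fibroblasts in Hoxb9, Hoxd3 and Hoxd4 (3 of 16; background 9.20%) and lower in Hoxc4, Hoxc5 and Hoxc6 (3 of 19; 8.56%). Over adipocytes, vascular nuclei were higher in 7 of 16 genes (background 20.3%) and lower in Hoxc5 (1 of 24; 4.78%). Over fibroblasts, lymphatic nuclei were higher in Hoxd3 and Hoxd4 (2 of 8; 10.1%) and lower in the same 3 HoxC genes (3 of 19; 7.11%).

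Hoxd3, which in endothelial cells is known for its part in the angiogenic state, was at 51.7 (cKO-labelled) and 75.1 CPM (control) in lymphatic and 40 and 56.1 CPM in vascular nuclei, against 6.44 and 9.89 CPM in fibroblasts. Hoxd4 was at 54.7 (cKO-labelled) and 54.0 CPM (control) in lymphatic and 28.9 and 32.6 CPM in vascular nuclei, against 5.89 and 6.41 CPM in fibroblasts. The lymphatic over vascular log2 ratio of Hoxd4 was 0.92 (0.30 to 1.51, cKO-labelled) and 0.73 (0.28 to 1.17, control), and no Hox gene passed 2-fold in both libraries between these classes in either direction (0 of 8 higher, background 5.06%; 0 of 16 lower, background 4.75%). Hoxc4 was at 12.2 (cKO-labelled) and 10.1 CPM (control) in lymphatic and 21.8 and 16.8 CPM in vascular nuclei, against 54.1 and 62.0 CPM in fibroblasts and 19.6 and 24.1 CPM in lymphocytes. Hoxc6 had 0 UMIs in lymphatic nuclei of the cKO-labelled library and 8 in the control, and was at 10.7 and 5.26 CPM in vascular nuclei, against 15.4 and 6.19 CPM in lymphocytes. Both HoxC genes thus stood near or under the lymphoid level in endothelium. Adipocyte markers were at 45.2% (cKO-labelled) and 25% (control) of their adipocyte level in vascular nuclei and 25% and 20.4% in lymphatic nuclei, and their part in these HoxC values was not tested.

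Vascular nuclei fell into cluster 21 (Gja5, an artery gene), cluster 20 (Vwf), cluster 13 (Flt1, a VEGF receptor gene) and cluster 19, which had markers of both endothelia, with Vwf at 540 (cKO-labelled) and 596 CPM (control) and Prox1, the lymphatic master regulator, at 404 and 614 CPM. Hoxd3 was at 56.7 (cKO-labelled) and 57.1 CPM (control) in cluster 21, 41.3 and 43.3 CPM in cluster 20 and 57.9 and 85.7 CPM in cluster 19, against 21.6 and 31.6 CPM in cluster 13. The cluster 21 over cluster 13 log2 ratio was 1.39 (0.46 to 2.33, cKO-labelled) and 0.86 (0.22 to 1.51, control). For cluster 20 over cluster 13 it was 0.94 (-0.03 to 1.89) and 0.46 (-0.29 to 1.2), with intervals that held 0. With cluster 19 moved to the lymphatic class, 10 Hox genes passed the lymphoid rule in vascular nuclei and 8 in lymphatic nuclei. Hoxa3 was at 143 (cKO-labelled) and 115 CPM (control) in cluster 20, against 40.2 and 55.7 CPM in cluster 13. Its log2 ratios between these clusters were 1.83 (1.25 to 2.43, cKO-labelled) and 1.05 (0.55 to 1.55, control).

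Of the group 9 genes, Hoxb9 and Hoxd9 are described because their values stood out. Hoxb9 had 10 UMIs in cluster 21 of the cKO-labelled library (27.0 CPM) and 21 in that of the control (21.0 CPM), and 8 and 11 in cluster 20 (17.4 and 14.9 CPM). Cluster 13 had 2 Hoxb9 UMIs (1.96 CPM, cKO-labelled) and 7 (6.50 CPM, control) and the lymphatic class 0 and 0. The cluster 21 over cluster 13 log2 ratio was 3.78 (1.55 to 7.01, cKO-labelled) and 1.70 (0.41 to 3.17, control). Adipocytes, with many more UMIs in all, had 1 (cKO-labelled) and 4 Hoxb9 UMIs (control). Hoxd9 had 7 (cKO-labelled) and 9 UMIs (control) in lymphatic nuclei (10.6 and 7.60 CPM) and 3 and 11 in cluster 19 (4.45 and 9.34 CPM), against 0 and 0 in cluster 20 and 1 and 0 in cluster 21. These counts are small and the Hoxd9 intervals in lymphatic nuclei run over 4.28 to 21.9 CPM (cKO-labelled) and 3.47 to 14.4 CPM (control).

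**Figure D4:**
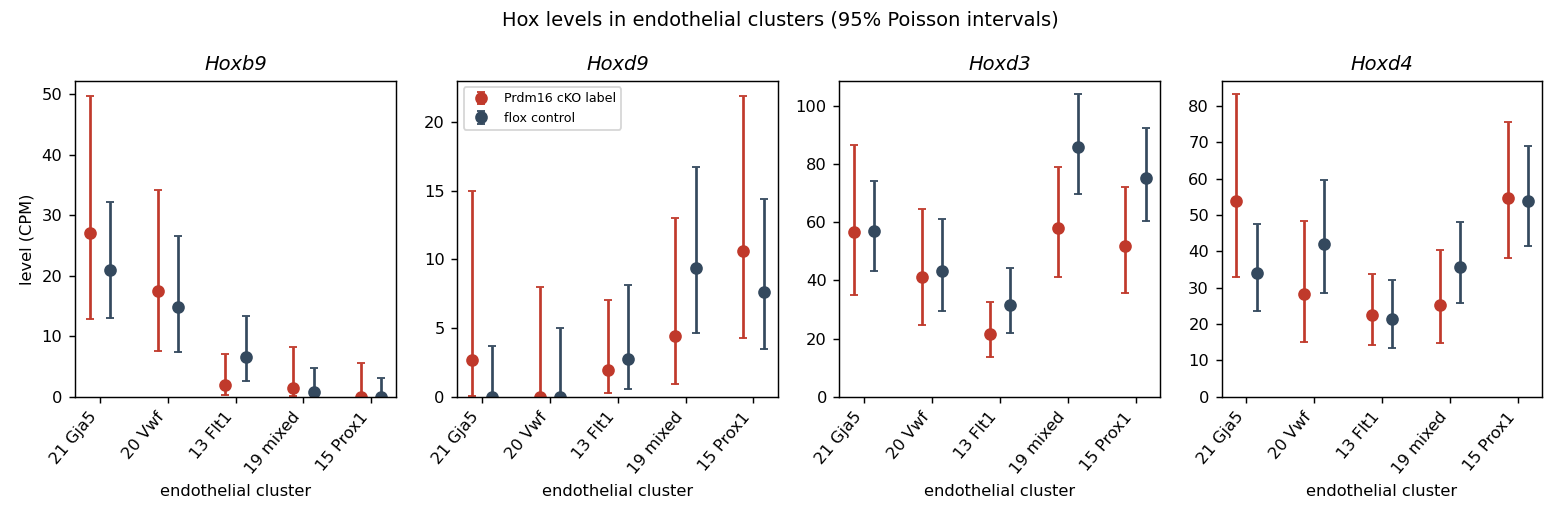
Level in CPM (y axis, from 0) of Hoxb9, Hoxd9, Hoxd3 and Hoxd4 in 5 endothelial clusters, with the cKO-labelled library left of the flox control and bars as 95% Poisson intervals. Hoxb9 is highest in clusters 21 and 20 and at 0 in lymphatic cluster 15, while Hoxd9 is highest in clusters 15 and 19.

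The comparison of libraries asks whether the Hox code moves with the Prdm16 label. Summed Hox levels differed little in the 5 non-immune classes. As a log2 ratio, cKO-labelled over control, the difference was 0.06 (0.03 to 0.09) in adipocytes, 0.09 (0.02 to 0.16) in mesothelium, -0.12 (-0.19 to -0.05) in fibroblasts, -0.18 (-0.27 to -0.08) in vascular and -0.17 (-0.36 to 0.02) in lymphatic nuclei. It was larger in dendritic nuclei, at 0.47 (0.21 to 0.73), and in macrophages, at 0.24 (0.06 to 0.42). T cells were at 0.15 (-0.09 to 0.39) and B cells at 0.19 (-0.06 to 0.44). A gene was counted at 1.5 times either way with at least 20 UMIs over both libraries. In adipocytes 2 of 24 Hox genes were counted as higher (Hoxa2 among them; background 7.46%) and 2 as lower (Hoxa9 and Hoxd3; 5.18%). In mesothelium 2 of 22 were higher (Hoxa4, which was at -0.04 with nuclei thinned to 1000 UMIs, and Hoxa9; 7.98%) and 1 lower (Hoxb7; 5.25%). In fibroblasts 0 of 20 were higher (7.84%) and 3 lower (Hoxa4, Hoxd3 and Hoxd8; 4.49%). In vascular nuclei 3 of 19 were higher (Hoxa7, Hoxc6 and Hoxc8; 12.6%) and 2 lower (Hoxa9 and Hoxb7; 7.52%). With nuclei thinned to 1000 UMIs, 4 of these 5 changed sign: the log2 ratio became -0.89 for Hoxa7, -0.04 for Hoxc6, 0.69 for Hoxa9 and 0.69 for Hoxb7. At full depth Hoxa7 had 24 UMIs in each library and Hoxb7 had 5 (cKO-labelled) and 18 (control), and thinning kept fewer. The thinned ratios come from a random draw and have no interval, so the sign of these differences stays unsettled. In lymphatic nuclei 1 of 10 was higher (Hoxb5; 9.89%) and 1 lower (Hoxd8; 8.68%), with Hoxb5 at -0.99 when thinned and -0.05 with no doublets removed. In the immune classes 10 calls were higher and 1 lower: Hoxa5, Hoxb4, Hoxc6 and Hoxd4 of 13 in macrophages (8.21%), Hoxb5 and Hoxc4 of 8 in dendritic nuclei (13.6%), Hoxc6 of 8 in T cells (9.49%), Hoxb4, Hoxb8 and Hoxc6 of 9 in B cells (12.6%), and Hoxc4 lower in B cells (8.16%). The count of lower genes was 0 in macrophages (background 5.22%), 0 in dendritic nuclei (7.26%) and 0 in T cells (10.2%). Adipocyte marker sums were higher in the cKO-labelled library in the same 4 classes: 2100 CPM against 1790 CPM in the control in macrophages, 3110 against 1960 CPM in dendritic nuclei, 3790 against 2900 CPM in T cells and 3550 against 2220 CPM in B cells. A setting with an adipocyte profile subtracted was chosen after seeing the data. In it the log2 ratio of summed Hox was -0.30 in T cells (against 0.15) and -0.42 in B cells (against 0.19). It was 0.22 in macrophages (against 0.24) and 0.30 in dendritic nuclei (against 0.47). The part of free RNA in these differences was not tested. In macrophages Hoxd4 was at -0.12 when thinned and Hoxc6 at -0.08 with no doublets removed.

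Within adipocytes the largest shift among the 19 genes was that of Hoxd3, at 6.43 CPM (245 UMIs) in the cKO-labelled library and 9.96 CPM (568 UMIs) in the control, a log2 ratio of -0.63 (-0.85 to -0.41). By cluster it was -0.88 (cluster 1), -0.85 (cluster 2), -0.37 (cluster 0) and 0.05 (cluster 7). Hoxd3 was lower in the cKO-labelled library in all 9 classes, with -0.62 in fibroblasts, -0.26 in mesothelium, -0.49 in vascular and -0.54 in lymphatic nuclei. In immune classes, where it had 3 to 11 UMIs in the cKO-labelled library and 10 to 27 in the control, it was at -0.42 in macrophages, -0.94 in dendritic nuclei, -0.91 in T cells and -0.74 in B cells, each with an interval that held 0, as did those of mesothelial and lymphatic nuclei. Hoxb8 was at 17.4 CPM in the cKO-labelled library and 12.4 CPM in the control, a log2 ratio of 0.49 (0.34 to 0.65), under the fold of 1.5, and was positive in each of the 4 adipocyte clusters (0.34, 0.34, 0.68 and 1.08). Hoxc8 had a log2 ratio of 0.33 (0.21 to 0.45). In vascular nuclei Hoxa3 was at 67.7 (cKO-labelled) and 100 CPM (control), a log2 ratio of -0.57 (-0.83 to -0.30), and Hoxc6 at 10.7 and 5.26 CPM, a log2 ratio of 1.02 (0.15 to 1.92) that became -0.04 when thinned. The vascular clusters were not alike in this. By the cluster levels given above, Hoxa3 was lower in the cKO-labelled library in cluster 13 but higher in cluster 20. Hoxd3 was lower in clusters 13 and 19 and nearly equal in clusters 20 and 21. The higher HoxC values in vascular nuclei of the cKO-labelled library went with a higher adipocyte marker sum there, 3590 CPM against 2120 CPM in the control, and its part was not tested. The median log2 ratio over the Hox genes with enough counts was 0.09 in adipocytes (24 genes), 0.12 in mesothelium (22), -0.09 in fibroblasts (20) and -0.24 in vascular nuclei (19), beside 0.04, 0.03, 0.04 and 0.04 over all genes.

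**Figure D5:**
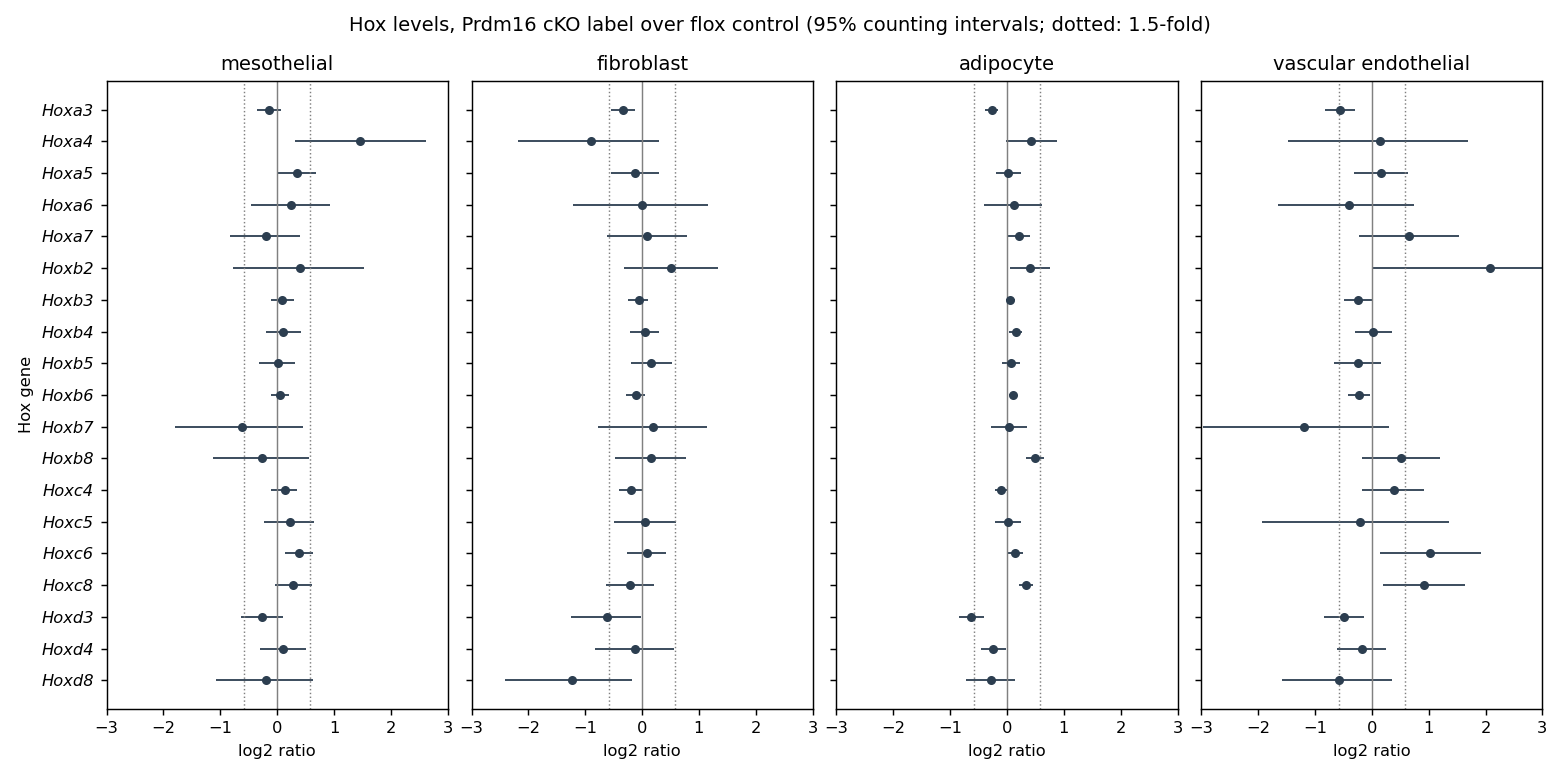
Log2 ratio, cKO-labelled over flox control (x axis), for 19 Hox genes in 4 classes, with bars as 95% counting intervals, some running past the axis, and dotted lines at 1.5-fold. Most points lie between the dotted lines, and Hoxd3 lies left of 0 in all 4 classes.

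Other genes of the Hox pathway were read from lists by the same 2-fold rule over the lymphoid level, counting only members with at least 10 UMIs in the class in each library, and the backgrounds given above for each class apply. As above, a low count in adipocytes does not show that they lack these genes, because adipocyte markers were also found in lymphocytes. Among the TALE cofactors, Pbx4, Meis1, Meis2 and Pknox2 passed in mesothelium, Meis1, Meis2 and Pknox2 in fibroblasts, Meis2 and Pknox2 in vascular nuclei and Meis2 in lymphatic nuclei, and 0 of 10 passed in adipocytes. Pbx4 was at 23.3 (cKO-labelled) and 26.0 CPM (control) in mesothelium, against 0.866 and 0.561 CPM in adipocytes. Pknox2 was at 95.5 (cKO-labelled) and 125 CPM (control) in fibroblasts, against 2.60 and 2.21 CPM in adipocytes, and Tgif1 at 6.63 and 7.25 CPM against 1.05 and 1.14 CPM. By the smaller of the mesothelial and fibroblast ratios over adipocytes, Pbx2, Meis3 and Pknox1 were lowest, with Pbx2 at 17.4 (cKO-labelled) and 12.6 CPM (control) in mesothelium and 17.1 and 16.4 CPM in adipocytes. Meis1 was at 266 (cKO-labelled) and 250 CPM (control) in vascular nuclei and 1110 and 1140 CPM in mesothelium.

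Transcription factors of the visceral and coelomic lining passed for 7 of 8 in mesothelium (Wt1, Bnc1, Gata5, Gata6, Osr1, Nr2f1 and Nr2f2), although Wt1 and Bnc1 also served as markers to name that class. In fibroblasts 7 of 11 passed (Wt1, Tcf21, Gata6, Osr1, Osr2, Nr2f2 and Foxf1), in vascular nuclei 2 of 7 (Gata6 and Nr2f2), in lymphatic nuclei 1 of 3 (Nr2f2) and in adipocytes 0 of 11. Gata5 was at 22.4 (cKO-labelled) and 24.7 CPM (control) in mesothelium, against 0.367 and 0.684 CPM in adipocytes, and Wt1 at 189 and 224 CPM in fibroblasts, against 17.3 and 21.4 CPM in adipocytes. Gata4, Nr2f1 and Nr2f6 were lowest by the smaller of the 2 ratios over adipocytes, with Nr2f6 at 6.21 (cKO-labelled) and 7.57 CPM (control) in mesothelium and 5.43 and 4.42 CPM in adipocytes. Of 24 other homeobox and T-box genes, few had enough counts: 4 of 5 passed in mesothelium (Tbx15, Tbx18, Tbx2 and Isl1), 2 of 6 in fibroblasts (Tbx15 and Prrx1), 1 of 3 in vascular nuclei (Tbx3) and 1 of 6 in adipocytes (Lhx8), and no member could be read in lymphatic nuclei. Isl1, a LIM-homeobox gene, was at 214 (cKO-labelled) and 188 CPM (control) in mesothelium, against 3.20 and 3.37 CPM in adipocytes. Prrx1, a limb and trunk mesenchyme gene, was at 364 (cKO-labelled) and 343 CPM (control) in fibroblasts, against 15.6 and 12.9 CPM in adipocytes. Lhx8 was at 0.621 (cKO-labelled) and 0.891 CPM (control) in mesothelium, against 6.56 and 7.05 CPM in adipocytes.

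Among 13 regulators that act upstream of Hox genes, most of them in retinoic acid signalling, 5 of 7 with enough counts passed in fibroblasts (Rarb, Rarg, Aldh1a2, Aldh1a3 and Cyp26b1), 3 of 5 in mesothelium (Rarb, Rarg and Aldh1a2), 3 of 6 in vascular nuclei (Rarb, Rarg and Cyp26b1), 1 of 4 in lymphatic nuclei (Rarb) and 1 of 7 in adipocytes (Aldh1a1). Aldh1a2, the main retinoic acid synthase of the embryo, was at 162 (cKO-labelled) and 143 CPM (control) in mesothelium and 117 and 78.0 CPM in fibroblasts, against 4.57 and 5.02 CPM in adipocytes. Rarb, a retinoic acid receptor gene that retinoic acid induces, was at 115 (cKO-labelled) and 128 CPM (control) in mesothelium, against 9.66 and 10.1 CPM in adipocytes. Aldh1a1 was at 829 (cKO-labelled) and 954 CPM (control) in mesothelium and 932 and 1100 CPM in adipocytes. Of 19 Polycomb and trithorax genes, which keep Hox genes silent or active, 1 of 17 with enough counts passed in mesothelium (Pcgf2, at 12.7 (cKO-labelled) and 16.3 CPM (control), against 6.38 and 6.93 CPM in adipocytes), against 0 of 19 in adipocytes, 0 of 18 in fibroblasts, 0 of 16 in vascular and 0 of 14 in lymphatic nuclei. Jarid2 was at 294 (cKO-labelled) and 288 CPM (control) in mesothelium, against 597 and 616 CPM in adipocytes. Of 18 non-coding and flanking genes of the Hox loci, 3 of 9 with enough counts passed in vascular nuclei (Hotairm1, Hoxaas2 and Hoxb5os), 2 of 8 in mesothelium (Hotairm1 and Hoxaas2), 2 of 9 in fibroblasts (Hoxaas2 and Hoxb5os), 1 of 5 in lymphatic nuclei and 1 of 9 in adipocytes (Hoxb3os in both). Hoxb3os, antisense to Hoxb3 and Hoxb2, was at 25.2 (cKO-labelled) and 19 CPM (control) in adipocytes, against 9.94 and 13.1 CPM in fibroblasts, the opposite order to Hoxb3.

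By the library rule, few of these genes differed in adipocytes: 1 of 10 TALE cofactors was higher (Pbx4), 1 of 11 visceral factors higher (Gata4) and 1 lower (Gata5), and 1 of 8 upstream regulators higher (Aldh1a3) and 1 lower (Gdf11, a trunk-to-tail signal). None of 19 Polycomb and trithorax genes, 6 other homeobox genes and 9 Hox-locus genes differed there. In vascular nuclei 2 of 9 TALE cofactors were lower (Pknox2 and Tgif1), with Pknox2 at 34.5 CPM in the cKO-labelled library and 61.9 CPM in the control. Of 7 upstream regulators there, Rarb and Cyp26b1, which codes for an enzyme that clears retinoic acid, were lower, and Aldh1a1 and Aldh1a3 were higher. Cyp26b1 was at 25.7 CPM in the cKO-labelled library and 46.8 CPM in the control. Of the other lists there, 2 of 4 homeobox and T-box genes were lower (Tbx15 and Isl1), 2 of 8 visceral factors higher (Gata4 and Nr2f6), 2 of 10 Hox-locus genes higher (Hotairm1 and Hoxaas2), and of 17 Polycomb and trithorax genes 2 were higher (Kmt2b and Men1) and 1 lower (Bmi1). Aldh1a1, which is high in adipocytes, was at 425 (cKO-labelled) and 261 CPM (control), beside the adipocyte marker sums of vascular nuclei given above. In fibroblasts the higher genes were Tcf21, Gata4 and Osr2 (3 of 11 visceral factors), Cbx2 and Men1 (2 of 18 Polycomb and trithorax genes) and Hoxaas2 (1 of 9 Hox-locus genes). The lower ones were Bnc1 (1 of 11 visceral factors), Tbx15 and Isl1 (2 of 6 homeobox and T-box genes) and Gdf11 and Cyp26b1 (2 of 8 upstream regulators), and 0 of 10 TALE cofactors differed. In mesothelium Cyp26b1 (1 of 6 upstream regulators) and Skap1 (1 of 9 Hox-locus genes) were lower, and the other 4 lists gave no call. In lymphatic nuclei Ring1, Wdr5 and Kdm6b were higher (3 of 14 Polycomb and trithorax genes) and Pbx2 lower (1 of 6 TALE cofactors), with no call in the other lists, and the homeobox and T-box list had no member with enough counts. The backgrounds of the library rule given above hold for these counts.

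The genes most like each Hox cluster across 18 points (9 classes in 2 libraries) were ranked by Pearson's r of log2(CPM + 1) among 12316 genes, as a description. For HoxA they were Parva (0.978), Rbpms (0.967), Cdc42bpa (0.966), Meis2 (0.965) and Sptan1 (0.964), and for HoxB Parva (0.975), Meis2 (0.973), Zfp532 (0.963), Rbpms (0.962) and Gjc1 (0.962). For HoxC they were Bnc2 (0.973), Hand2os1 (0.962), Meis1 (0.958), Usp13 (0.957) and Zfhx4 (0.953), and for HoxD Magi1 (0.987), Mical2 (0.972), Ptprk (0.968), Ctnnal1 (0.966) and Nectin2 (0.959). The points share libraries, and immune classes lie low in all 4 sums.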

How the data were processed

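Single-nucleus RNA was measured in 2 libraries. The deposited matrices hold raw UMI counts per gene and barcode, which the authors made with Cell Ranger 6.1.2 on build mm10, per the submitters' processing notes. Annotation release, introns and strand: not given in the sources used here. Positions are from GENCODE M21 and 1-based, and promoters from RefSeq.

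Nuclei with at least 500 UMIs, 300 genes and under 5% mitochondrial UMIs were kept, which removed 217 barcodes of the cKO-labelled and 449 of the control library for mitochondrial UMIs. Scrublet marked 0 and 1 nuclei by its own threshold, under the 0.5% minimum, so the highest scores were removed at 0.8% per 1000 nuclei (495 and 1079). Counts were scaled to 10000 per nucleus and log-transformed, and 2000 variable genes (no Hox gene among them), 30 components, 20 neighbours and Leiden clustering at resolution 1.0 (scanpy 1.11.5, leidenalg 0.10.2, Python 3.11.15) gave clusters, named by at least 3 markers and meant as "-like" classes; a difference from any other account may come from these rebuilt names. UMIs were then added up over each class of a library and scaled to CPM, with exact Poisson and conditional binomial intervals. A lymphoid level of 0 was replaced by 3 counts per library. TMM scaling used edgeR 4.0.16. The rules were tested on simulated data.

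Values by class are given for every Hox gene with at least 100 UMIs in each library, and for each list the members passing the rule with values chosen from the 3 highest and 3 lowest ratios over adipocytes; genes of like pattern needed at least 200 UMIs in each library. Named genes outside these rules were chosen after their values were seen. The members and lists were chosen with earlier results of these data known. Single values of some genes in these lists are not reported here.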

Additional observations from a re-analysis of the deposited data

Results flagged for a closer look

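Hoxc4 moved in opposite directions between the libraries in 2 immune classes. In dendritic-like nuclei it had 21 UMIs (19.3 CPM) in the cKO-labelled library and 18 (9.52 CPM) in the control, a log2 ratio of 1.02 (0.04 to 2.01). In B cell-like nuclei it had 18 UMIs (13.8 CPM) in the cKO-labelled library and 38 (26.4 CPM) in the control, a log2 ratio of -0.94 (-1.84 to -0.10). With 1 library per genotype the difference between the classes was not tested.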

How the results depend on the processing

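No paired analysis was possible because each genotype had 1 library. Over all alternatives, 208 of the summary values kept their direction and stayed within 1.5 times or the counting interval, and 31 did not, for causes that were not tested except where a stricter or looser rule sets them. The adipocyte count (1) became 0 with no doublets removed or at a fold of 3, 2 with mean CPM per nucleus, thinning to 1000 UMIs, 10% free RNA removed or resolution 2.0, 7 at a fold of 1.5, 10 over the macrophage level and 5 with an adipocyte profile subtracted from the other classes. The mesothelial count (17) became 11 at a fold of 3, the fibroblast count (7) 13 at 1.5 and 1 at 3, the vascular count (11) 7 with thinning, and the lymphatic count (7) 0 with thinning, 3 at a fold of 3, 11 with a minimum of 1 UMI and 4 with a minimum of 30. The thinned lymphatic class kept few Hox UMIs, so that 0 has the limit given above.

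The log2 ratio of summed Hox became 0.02 (mean CPM), 0.16 (cluster 0) and 0.20 (cluster 7) in adipocytes, -0.27 (thinned) in fibroblasts, -0.05 (resolution 0.5), -0.05 (cluster 19 counted as lymphatic) and 0.00 (adipocyte profile subtracted) in vascular nuclei, 0.17 (mean CPM), 0.11 (thinned) and 0.80 (resolution 2.0) in dendritic nuclei against 0.47, 0.40 (mean CPM), 0.43 (libraries clustered apart) and -0.30 (adipocyte profile subtracted) in T cells against 0.15, and -0.42 (adipocyte profile subtracted) in B cells against 0.19. Single genes changed sign 11 times: Hoxa9 in adipocyte cluster 0 (0.15), Hoxd3 in cluster 7 (0.05), Hoxb5 in lymphatic nuclei (-0.05 with no doublets removed, -0.99 thinned), Hoxc6 in macrophages (-0.08 with no doublets removed), and, thinned, Hoxd4 in macrophages (-0.12), Hoxa4 in mesothelium (-0.04) and Hoxa7 (-0.89), Hoxc6 (-0.04), Hoxa9 (0.69) and Hoxb7 (0.69) in vascular nuclei. The alternatives that moved cluster 19 and subtracted an adipocyte profile were chosen after seeing the data. Depth limits the small classes most, where a Hox gene often has under 20 UMIs. Thinned values rest on fewer UMIs still and have no interval.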
